A study of Mus musculus with 8 samples.

Results

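BCL2 family proteins set whether a cell survives or dies through the mitochondrial pathway. The genomic neighborhoods of 4 of their genes, Mcl1, Bcl2l1, Bcl2 and Bcl2l11, were followed in the chromatin contacts of a mouse pancreatic cancer model. Loops were taken when an anchor lay within 2 kb of an annotated transcript start of 1 of the genes (start loops), or when both anchors lay within 250 kb of its starts (neighborhood loops). The rule took 325 of the 249200 distinct loops of 4 loop lists, with 98 at Mcl1, 126 at Bcl2l1, 42 at Bcl2 and 59 at Bcl2l11. Of these, 105 were start loops, 54 of which stayed inside the 250 kb windows and 51 of which left them.

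The contacts came from Hi-ChIP, in which crosslinked chromatin is cut and ligated so that fragments lying close in the nucleus are joined, and the joined fragments bound by a chosen protein are then pulled down and sequenced. The 8 samples formed 4 groups with 2 replicates each, namely FOXA1 in tumor cells, FOXA1 in liver mets cells, HNF4G in tumor cells and HNF4G in liver mets cells. FOXA1 is a forkhead transcription factor that opens chromatin and HNF4G is a nuclear receptor of the hepatocyte nuclear factor 4 family. Tumor cells were a line made from a primary pancreatic tumor of KPC mice, a genetic model of pancreatic cancer, and liver mets cells were a line made from a matched liver metastasis. All samples are labeled WT and untreated and were grown in the same serum-containing medium, so the label WT refers to no further engineering of the KPC cells. Each context was 1 cell line, so what belongs to the metastatic state and what belongs to that line cannot be told apart. The lists hold contacts and no RNA levels, so the labeled cell type could not be checked against marker genes, and whether any of the 4 genes was expressed was not measured.

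Each group had 1 loop list that covered both replicates, so there was no spread between replicates and no test between groups was run. Intervals given below are 95% intervals for counting error, and they treat loops as independent although start loops of a gene share an anchor. Those of ratios also treat the compared lists as separate, although the same loop can be in both. The lists held 125623 loops for FOXA1 in liver mets, 104136 for FOXA1 in tumor, 78098 for HNF4G in liver mets and 76323 for HNF4G in tumor, and read depth was not analysed here. Each loop carried an unnamed value that ended at 20, which may measure significance rather than contact frequency, so values are compared below only as higher or lower. Between 25.3% and 32.4% of the loops of a list sat at 1 of 2 tied values, a higher one of 1.87 to 1.99 and a lower one of 0.0889 to 0.171, so values of 2 or more stood above both ties in every list.

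MCL1, BCL-XL (the long product of Bcl2l1) and BCL2 are pro-survival proteins that hold the pore-forming effectors BAX and BAK in check at the mitochondrial outer membrane. BIM, the product of Bcl2l11, belongs to the BH3-only proteins, which bind the pro-survival proteins and release or activate the effectors. Released cytochrome c then activates caspases through APAF1. MCL1 is short-lived and BIM is induced by loss of growth factor signals, and dependence on MCL1 or BCL-XL is common in epithelial tumors.

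The promoters at the 5′ ends of the 4 genes are shown first, since they lie in start anchors, although 22 of the 39 Bcl2l1 start loops ended instead at an anchor over internal starts that is not shown. Each is the stretch of 250 bases before the RefSeq start in GRCm38.p6, read 5′ to 3′ on the strand of the gene, from the most upstream entry of each gene, and capitals mark a forkhead core, TGTTTAC or TATTTAC on either strand.
Mcl1, chr3:95658471-95658720, plus strand: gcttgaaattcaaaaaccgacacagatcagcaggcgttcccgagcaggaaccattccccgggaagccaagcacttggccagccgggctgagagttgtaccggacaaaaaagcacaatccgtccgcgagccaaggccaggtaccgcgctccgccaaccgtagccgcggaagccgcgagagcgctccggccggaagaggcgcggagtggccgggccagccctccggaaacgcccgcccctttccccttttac
Bcl2l1, chr2:152831729-152831978, minus strand: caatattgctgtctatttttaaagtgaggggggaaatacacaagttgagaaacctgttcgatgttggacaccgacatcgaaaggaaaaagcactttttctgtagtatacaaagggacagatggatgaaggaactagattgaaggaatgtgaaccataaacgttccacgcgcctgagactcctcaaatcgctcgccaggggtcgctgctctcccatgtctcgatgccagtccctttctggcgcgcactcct
Bcl2, chr1:106714291-106714540, minus strand: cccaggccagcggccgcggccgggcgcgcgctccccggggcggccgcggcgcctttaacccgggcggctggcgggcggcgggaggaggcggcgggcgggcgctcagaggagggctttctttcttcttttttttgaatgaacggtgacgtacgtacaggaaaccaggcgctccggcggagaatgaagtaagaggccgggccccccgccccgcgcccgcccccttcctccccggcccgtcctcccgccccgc
Bcl2l11, chr2:128125788-128126037, plus strand: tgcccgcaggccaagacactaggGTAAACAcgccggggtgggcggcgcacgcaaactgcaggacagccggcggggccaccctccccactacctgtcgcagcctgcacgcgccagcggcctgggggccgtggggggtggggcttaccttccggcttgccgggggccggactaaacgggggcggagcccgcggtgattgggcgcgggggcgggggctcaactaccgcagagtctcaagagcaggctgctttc
Of these 4 stretches, that of Bcl2l11 held a forkhead core and the others held none, against 5.76% of 32851 promoter stretches of the same length in the RefSeq table. None held the HNF4 element CAAAGTCCA on either strand, which 0.384% of the promoter stretches held. G and C made up 64.4% of the Mcl1 stretch, 47.6% of that of Bcl2l1, 74.8% of that of Bcl2 and 72.0% of that of Bcl2l11, with a median of 52.4% over all promoters.

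Start loops were counted per gene to ask whether FOXA1 and HNF4G contacts at the survival genes differed between the cell lines. With FOXA1, Mcl1 had 13 start loops in liver mets and 7 in tumor, and with HNF4G it had 5 in liver mets and 7 in tumor. Bcl2l1 had 27, 20, 11 and 17 start loops in the same order. Bcl2 had 12, 10, 11 and 9, the most even numbers of the 4 genes. Bcl2l11 had 19, 24, 14 and 15 and was the only gene of the 4 with fewer FOXA1 start loops in liver mets than in tumor. Bcl2l1 stood highest in FOXA1 liver mets and HNF4G tumor, and Bcl2l11 in FOXA1 tumor and HNF4G liver mets. The Bcl2l1 numbers pool 2 start anchors, while each other gene had 1. Its 5′ anchor alone held 11 loops in FOXA1 liver mets and 10 in HNF4G tumor, fewer than Bcl2l11.

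**Figure D1:**
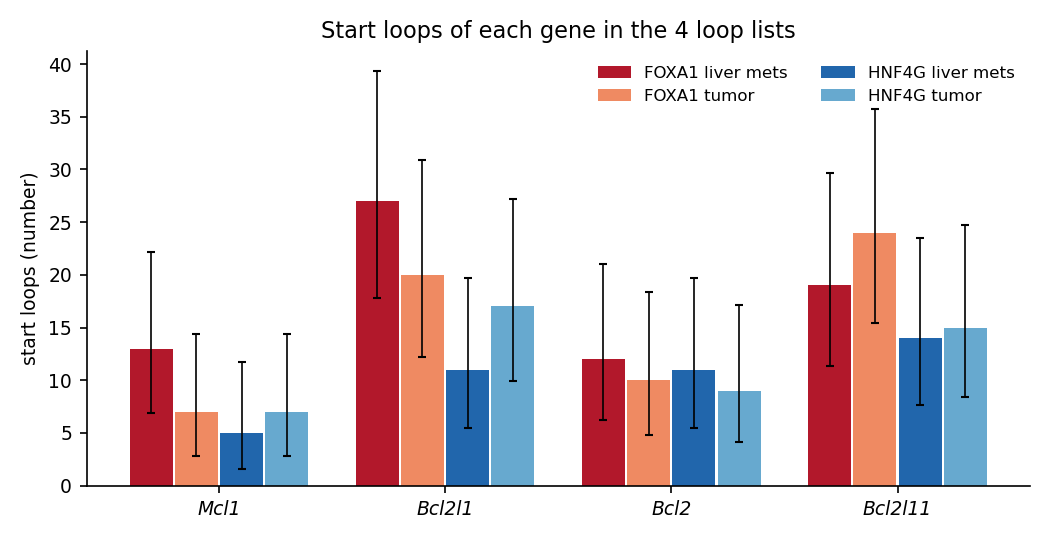
Number of start loops (y axis) of each gene (x axis) in the 4 loop lists (colors); error bars are exact Poisson 95% intervals for counting error. The intervals of the 4 lists overlap within every gene, with Bcl2l1 ranging from 11 in HNF4G liver mets to 27 in FOXA1 liver mets.

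The ratio of FOXA1 start loops in liver mets to those in tumor was 1.86 for Mcl1 (95% interval 0.689 to 5.50), 1.35 for Bcl2l1 (0.729 to 2.54), 1.20 for Bcl2 (0.475 to 3.1) and 0.792 for Bcl2l11 (0.410 to 1.51). All these intervals included 1. The 4 genes together had 71 and 61 FOXA1 start loops, a ratio of 1.16 (0.815 to 1.67), beside 1.18 over the start loops of all protein-coding genes. For HNF4G the ratio was 0.714 for Mcl1 (0.179 to 2.61), 0.647 for Bcl2l1 (0.274 to 1.46), 1.22 for Bcl2 (0.460 to 3.34) and 0.933 for Bcl2l11 (0.417 to 2.07). The 4 genes together had 41 and 48 HNF4G start loops, a ratio of 0.854 (0.549 to 1.32), beside 0.975 over all protein-coding genes. No interval thus excluded 1 for any of the 4 genes. The intervals take the compared lists as separate counts, although 40 FOXA1 and 26 HNF4G start loops of the 4 genes were in both lists of their factor. They therefore do not measure the error of the difference between the cell lines, which was not tested.

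A call was set at a change of 1.5-fold or more in genes with at least 5 start loops in both lists together. Mcl1 was the only gene of the 4 called higher for FOXA1 in liver mets, a call that 29.0% of 9119 protein-coding genes received. None of the 4 was called lower, against 12.2% of genes. For HNF4G none was called higher in liver mets, against 21.9% of 8052 genes, and Bcl2l1 was called lower, against 23.5%. With 1 of 4 genes called for each factor, the calls were near the background share and are no result about these genes. The Mcl1 call rested on single listings, as 8 of its 13 FOXA1 liver mets loops were in no other list, and with an anchor allowed up to 5 kb from the start its counts were 49 and 34, a ratio of 1.44. The Bcl2l1 call was lost when only the 5′ end of the gene was used, with 8 and 10 HNF4G loops and a ratio of 0.80.

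Within liver mets cells the 4 genes had more FOXA1 than HNF4G start loops, 71 against 41, a ratio of 1.73 (1.16 to 2.61). Over all protein-coding genes the ratio was 1.54, and divided by the sizes of the lists the ratio of the 4 genes was 1.08 (0.723 to 1.62). In tumor cells the counts were 61 and 48, a ratio of 1.27 (0.856 to 1.90), equal to the 1.27 of all protein-coding genes. Bcl2l1 had 27 against 11 in liver mets (2.45, 1.18 to 5.48), and its ratio of shares was 1.53 with an interval that reached below 1 (0.733 to 3.41).

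Bcl2l1 and Bcl2l11 had many start loops for a protein-coding gene, but the Bcl2l1 numbers pool 2 neighboring start anchors, and 13 of its 26 partners were joined to both. Its 5′ anchor alone held 11, 10, 8 and 10 loops in the same order of lists and was not ranked among genes. Their start loops summed over the lists, 75 and 72, lay above 88.7% and 88.0% of the 10802 protein-coding genes that had any, whose median was 23.0. Bcl2 (42) lay above 72.2% and Mcl1 (32) above 62.2%. Bcl2l1 and Bcl2l11 stood above at least 76.1% of the genes in every list, at 90.7%, 87.6%, 76.1% and 87.3% for the former and at 82.7%, 91.3%, 83.8% and 84.3% for the latter, in the same order of lists. Mcl1 fell to 44.1% in HNF4G liver mets and stood at 70.0% in FOXA1 liver mets.

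The membership of each start loop in the 4 lists was set beside that of start loops in general. Of the 105 start loops of the 4 genes, 19 (18.1%, Wilson 95% interval 11.9 to 26.5) were in all 4 lists, 18 in 3, 23 in 2 and 45 (42.9%, 33.8 to 52.4) in 1. Over the 161537 start loops of all protein-coding genes, 5.50% were in all 4 lists and 66.0% in 1. The loops in all 4 lists were 2 of 20 at Mcl1, 6 of 39 at Bcl2l1, 4 of 17 at Bcl2 and 7 of 29 at Bcl2l11. Mcl1 had the highest single-list share, 70.0%, while it was 17.6% for Bcl2 and 27.6% for Bcl2l11. Loops in both lists of 1 factor and in neither of the other were 9 for FOXA1 and 1 for HNF4G, 3 loops were in both liver mets lists alone and 5 in both tumor lists alone. Over the 161537 start loops of all protein-coding genes these counts were 8578, 3215, 5482 and 4279 in the same order. Loops in both FOXA1 lists alone were thus the most frequent of these kinds there too, and the FOXA1 lists are the longer ones.

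**Figure D2:**
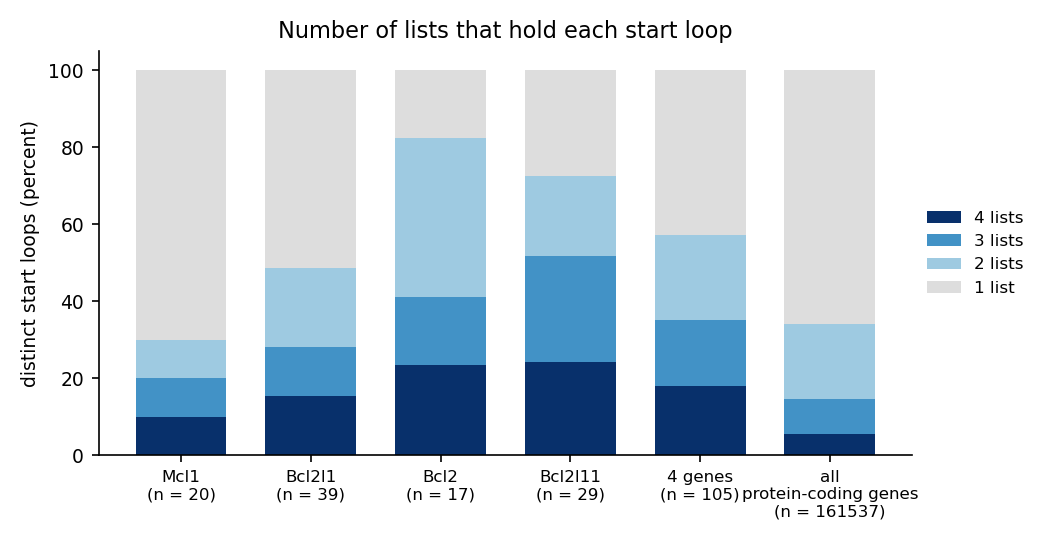
Percent of distinct start loops (y axis) held by 1, 2, 3 or all 4 lists (colors), for each gene, the 4 genes together and all protein-coding genes (n = distinct loops). The share in all 4 lists is 18.1% for the 4 genes and 5.50% for all protein-coding genes, and Mcl1 has the highest single-list share, 70.0%.

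Shared loops are mostly short ones, so membership was also read within ranges of span, the distance between anchor midpoints. Among start loops under 20 kb, 4 of 8 were in all 4 lists (50%), beside 34.2% over all protein-coding genes. Between 20 and 50 kb the shares were 20% and 16.1%, between 50 and 100 kb 37.5% and 8.24%, and between 100 and 200 kb 15% and 3.75%. Between 200 and 500 kb, 6 of 29 loops (20.7%) were in all 4 lists, beside 1.10% over all protein-coding genes. Of those 6 loops, 5 belonged to Bcl2l11 and 1 to Bcl2. At 500 kb and beyond none of 25 was in all 4 lists, beside 0.173%, and 20 of the 25 were in 1 list. The 6 long shared loops rest on 2 start anchors.

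**Figure D3:**
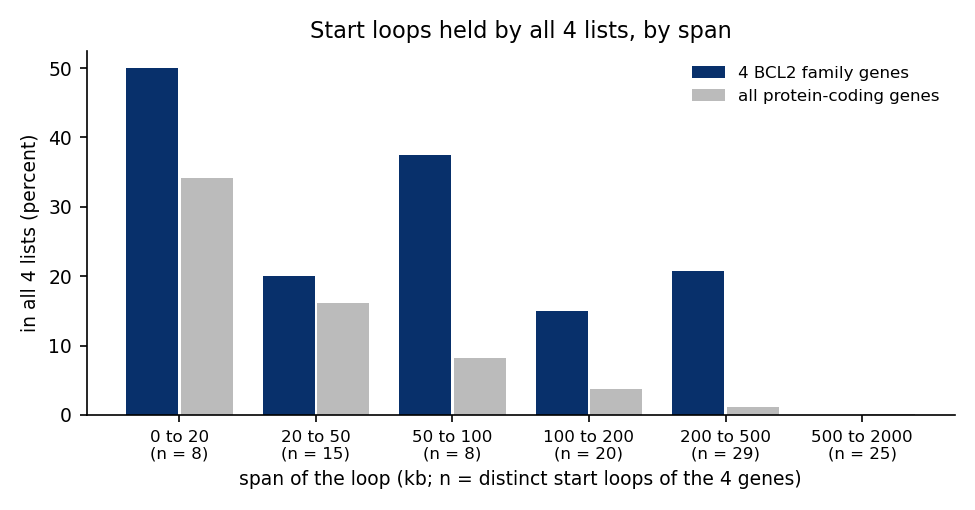
Percent of start loops in all 4 lists (y axis) by loop span in kb (x axis), for the 4 BCL2 family genes (dark bars) and all protein-coding genes (gray bars). Between 200 and 500 kb the bars stand at 20.7% and 1.10%, and no loop of the 4 genes of 500 kb or more is in all 4 lists.

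The median span of the start loops was 159 kb (liver mets) and 160 kb (tumor) for FOXA1 and 122 kb (liver mets) and 130 kb (tumor) for HNF4G, beside 178, 153, 127 and 146 kb over all protein-coding genes. Partners lay mostly on the transcribed side. Counted from the 5′ end of the gene, 83 of the 105 start loops reached downstream and 22 upstream. The lists also held fewer anchors upstream than downstream within 500 kb. They numbered 21 and 25 at Mcl1, 7 and 20 at Bcl2l1, 1 and 13 at Bcl2 and 10 and 22 at Bcl2l11. The sides were not counted for other genes. Partners carrying a protein-coding start within 2 kb made up 24.8% of the start loops, beside 34.0% over all protein-coding genes. Mcl1, with 10 of 20 (50%), was above that level, and Bcl2l1 (25.6%), Bcl2 (17.6%) and Bcl2l11 (10.3%) were below it. A long noncoding RNA gene and intergenic DNA follow Bcl2l11. Gene density around the genes was not counted, and whether these shares follow it was not tested.

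**Figure D4:**
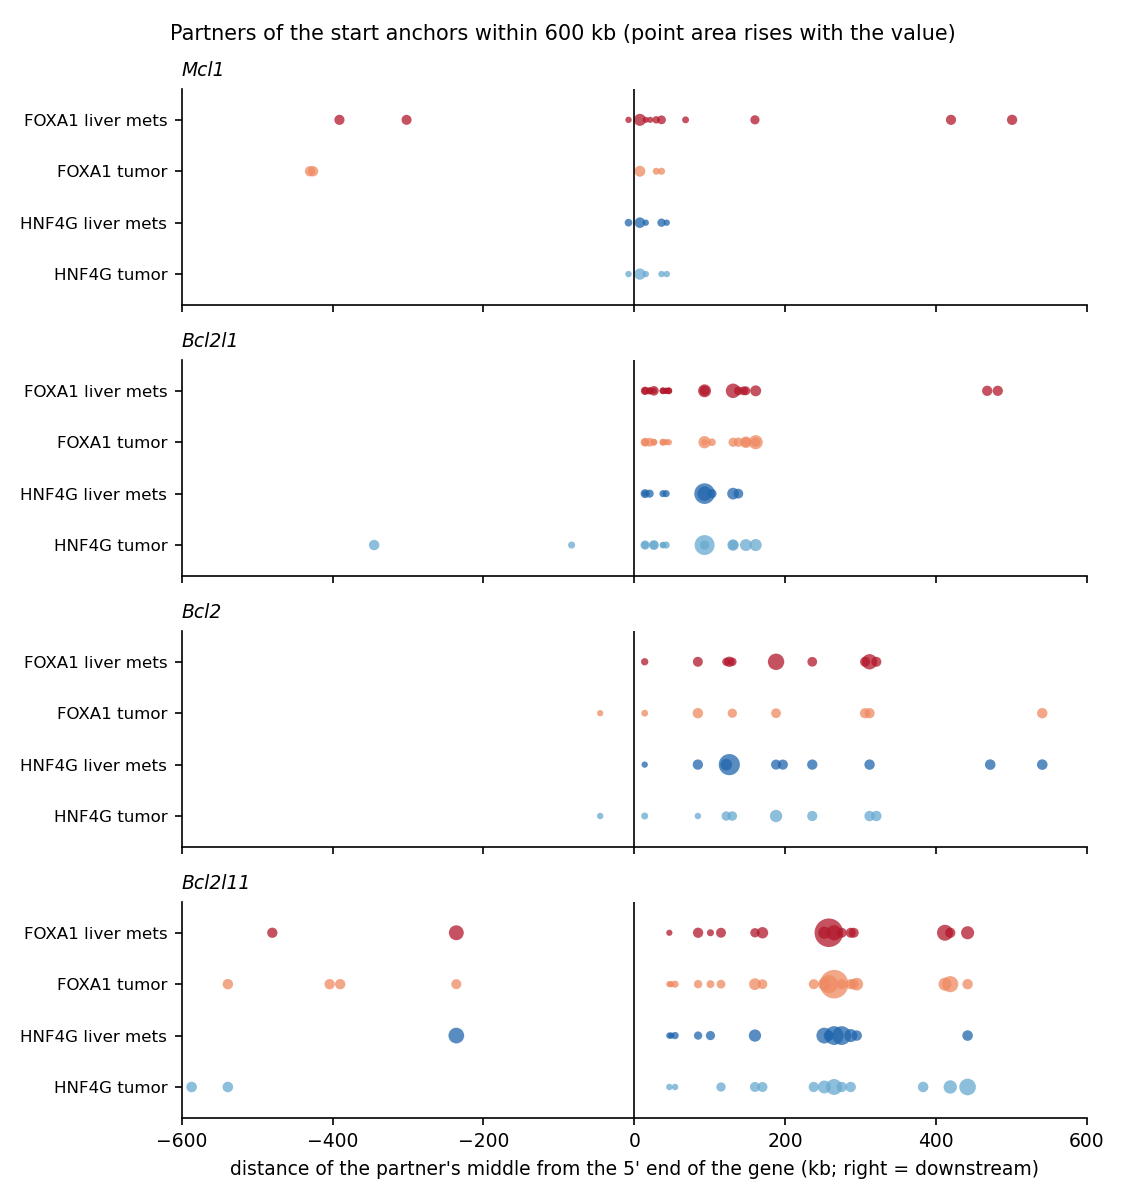
Partners of the start anchors of each gene by distance from its 5′ end in kb (x axis, downstream to the right, partners within 600 kb) in each list (rows); point area rises with the value of the loop. Partners of Bcl2l1, Bcl2 and Bcl2l11 lie mainly downstream, where the lists also hold more anchors. The largest points at Bcl2l11 stand 258 and 265 kb downstream in the FOXA1 lists, at 20.

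Mcl1 (ENSMUSG00000038612.16, chr3:95658788-95663176, plus strand) encodes the short-lived pro-survival protein MCL1. Its 1 start anchor, chr3:95658051-95660454, covers the promoter, and the partner closest by is the anchor over the 3′ end of the gene and the DNA behind it, chr3:95661804-95670613, 6.96 kb away. That loop had values of 2.83 (liver mets) and 2.16 (tumor) for FOXA1 and 1.99 (liver mets) and 2.42 (tumor) for HNF4G, and was the highest start loop of Mcl1 in every list. It was also the only Mcl1 start loop with a value of 2 or more in any list.

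The second Mcl1 partner found in all 4 lists, chr3:95691790-95697965, lay 35.6 kb away and 3.87 kb from the 5′ end of Adamtsl4, which encodes an extracellular matrix protein. Its values were low, 1.10 (liver mets) and 0.402 (tumor) for FOXA1 and 0.912 (liver mets) and 0.171 (tumor) for HNF4G. A partner over the Adamtsl4 5′ end itself, chr3:95686626-95689212, was in both FOXA1 lists alone (0.553 in liver mets and 0.375 in tumor). The next anchor, chr3:95699942-95703644, was in both HNF4G lists alone (0.146 in liver mets and 0.171 in tumor), at the lower tied value in both. The neighbors of Mcl1 on this side thus entered the lists of the factors at low values, and no HNF4G liver mets loop of Mcl1 reached 100 kb.

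All 5 Mcl1 loops of HNF4G liver mets were also in HNF4G tumor, and 3 of the 13 FOXA1 liver mets loops were also in FOXA1 tumor. Over all protein-coding genes, 34.2% of the HNF4G and 33.9% of the FOXA1 liver mets start loops were also in the tumor list of the factor. Most long start loops of all these genes were in 1 list, 59.3% between 100 and 200 kb, 75.8% between 200 and 500 kb and 91.0% beyond. The FOXA1 loops of Mcl1 of 100 kb or more were likewise each in 1 list. In liver mets they included loops to the starts of Prune1 (391 kb upstream), Setdb1, a histone methyltransferase gene (302 kb upstream), Rprd2 (159 kb downstream) and Mtmr11 (500 kb downstream). In tumor they included loops to a pair of anchors at Cdc42se1 and Mllt11 (430 and 427 kb upstream). The values of these loops lay between 1.28 and 1.87, under the higher tied value of their list, and none was in another list. The longest Mcl1 loops spanned 1956 kb (liver mets) and 1017 kb (tumor) for FOXA1 and 42.5 kb (liver mets) and 1004 kb (tumor) for HNF4G.

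The promoter was not the hub of its own neighborhood. Within 250 kb of Mcl1, 87 of the 153 possible anchor pairs (56.9%) were loops in some list, and the start anchor held 9 of them, rank 9 of 18 anchors. The anchor over the Mcl1 3′ end, the anchor reaching the 3′ end of Adamtsl4 (chr3:95671544-95676385) and the anchor upstream of Adamtsl4 (chr3:95691790-95697965) held 15 each. These anchors were 8810, 4842 and 6176 bases long, in that order, and the start anchor 2404 bases. Whether the ranks follow anchor length was not tested. The loop between the Mcl1 3′ anchor and chr3:95691790-95697965, 28.7 kb, had the highest value of the neighborhood in 3 lists, with values of 11.5 (liver mets) and 3.27 (tumor) for FOXA1 and 2.04 (liver mets) and 0.420 (tumor) for HNF4G. It stood highest in FOXA1 liver mets and lowest in HNF4G tumor. Neighborhood loops of Mcl1 numbered 62, 44, 42 and 33, higher in liver mets than in tumor for both factors, with ratios of 1.41 for FOXA1 (0.942 to 2.12) and 1.27 for HNF4G (0.788 to 2.07), intervals that included 1.

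Bcl2l1 (ENSMUSG00000007659.18, chr2:152780668-152831728, minus strand) encodes BCL-XL. Its 9 annotated starts fell on a pair of anchors, one over the 5′ end of the gene (chr2:152829670-152832231) and one over internal starts (chr2:152825349-152828764). The 5′ anchor held 11 (liver mets) and 10 (tumor) loops for FOXA1 and 8 (liver mets) and 10 (tumor) for HNF4G, and the internal anchor 16, 10, 3 and 7 in the same order. In these counts, which carry no intervals, the lists differed more at the internal anchor, and the 5′ anchor was nearly level. The anchors are close neighbors, and of the 26 partners, 13 were joined to both. Some of these partners were listed from different anchors in different lists, so the split depends on the anchor a contact was listed under.

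The partner of the Bcl2l1 5′ anchor with the highest HNF4G values was the anchor of Id1, chr2:152734137-152742960, while in both FOXA1 lists an anchor over H13 was higher. Id1 encodes a helix-loop-helix protein that blocks differentiation factors, and its start lies inside this anchor, 92.4 kb from the Bcl2l1 anchor. The loop had values of 3.42 (liver mets) and 3.03 (tumor) for FOXA1 and 10.0 (liver mets) and 9.28 (tumor) for HNF4G. Both HNF4G values were higher than both FOXA1 values, and for each factor the liver mets value was the higher. Within its list and the range from 50 to 100 kb the loop stood above 99.0% and 99.4% of FOXA1 loops in liver mets and tumor and above 99.9% of HNF4G loops in both. From the internal Bcl2l1 anchor the same partner, 88.5 kb away, had values of 1.77, 0.127, 4.46 and 1.32, higher in liver mets for both factors.

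The second distal target was H13, which encodes the intramembrane protease signal peptide peptidase. Of the Bcl2l1 start loops, 9 ended on 5 anchors over H13 exons. The one in all 4 lists, from the 5′ anchor to chr2:152699324-152702136 over 130 kb, had values of 4.51 (liver mets) and 1.28 (tumor) for FOXA1 and 2.65 (liver mets) and 2.47 (tumor) for HNF4G. The anchor over the H13 5′ end, chr2:152668528-152672648, was joined to the 5′ anchor in both tumor lists alone (4.24 for FOXA1 and 2.86 for HNF4G) and to the internal anchor in both FOXA1 lists alone (2.18 in liver mets and 1.49 in tumor). HNF4G liver mets held no loop from Bcl2l1 to that anchor, but joined the 5′ anchor to another H13 start, chr2:152692714-152694488 (1.58, beside 1.10 for FOXA1 in liver mets). A loop from the internal anchor to chr2:152682962-152684776 in H13 was in both FOXA1 lists alone too (1.15 in liver mets and 2.48 in tumor). From the 5′ anchor the same partner was in both tumor lists alone, at 1.41 for FOXA1 and 2.74 for HNF4G. The contact of Bcl2l1 with this partner was thus not limited to FOXA1.

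Another 12 Bcl2l1 start loops ended on 6 anchors inside the gene. The anchor chr2:152813324-152821571 in an intron was joined to both start anchors in all 4 lists, at 0.929, 0.587, 1.19 and 1.31 from the 5′ anchor and at 0.445, 1.08, 0.144 and 0.409 from the internal one. The intronic anchor chr2:152784684-152787101 was joined to the 5′ anchor in the FOXA1 lists alone, at 0.281 in liver mets and 0.122 in tumor. The longest Bcl2l1 loops spanned 1291 kb (liver mets) and 697 kb (tumor, in Nol4l) for FOXA1 and 600 kb (liver mets, to Csnk2a1) and 1783 kb (tumor, to 4930519P11Rik and Zfp341) for HNF4G, all in 1 list and at the higher tied value. Upstream of the gene, 2 of 7 anchors within 500 kb were joined in any list, and both were joined in HNF4G tumor alone, while downstream it was 15 of 20.

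In the Bcl2l1 neighborhood 113 of 153 anchor pairs (73.9%) were loops, and the Id1 anchor was the hub with 17 loops, joined to every other anchor of the window in some list. It was 8824 bases long, and the internal and 5′ anchors of Bcl2l1 were 3416 and 2562 bases long. The loop with the highest value in FOXA1 liver mets joined Id1 to the intronic anchor chr2:152813324-152821571, at 11.9, beside 1.91 for FOXA1 in tumor, and the HNF4G values were 6.34 (liver mets) and 2.55 (tumor). It was thus higher in liver mets for both factors. In FOXA1 tumor the highest joined Id1 to H13 (6.67, beside 1.87 for FOXA1 in liver mets, and 2.09 in liver mets and 0.976 in tumor for HNF4G). Neighborhood loops numbered 76, 64, 60 and 67.

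Bcl2 (ENSMUSG00000057329.7, chr1:106538178-106714274, minus strand) is the founding member of the family, a gene of 176 kb with most of its length in 1 intron. Its 1 start anchor was chr1:106711422-106716118. Of its 17 partners, 16 lay on the side of the gene body, 5 of them inside the gene, and the other was the promoter of Kdsr, a sphingolipid enzyme gene 45.7 kb upstream. Kdsr was joined in both tumor lists alone, at the lower tied values of 0.123 for FOXA1 and 0.171 for HNF4G. Of the 13 anchors within 500 kb downstream, 12 were joined in some list, and so was the only anchor within 500 kb upstream.

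The highest Bcl2 partner in FOXA1 liver mets lay past the 3′ end of the gene, chr1:106524764-106528188, over 187 kb. It had values of 6.0 (liver mets) and 1.57 (tumor) for FOXA1 and 1.72 (liver mets) and 3.03 (tumor) for HNF4G. A partner 312 kb away at the noncoding RNA gene A530053M12Rik, chr1:106399390-106404822, had 5.15, 1.78, 1.88 and 1.88 in the same order. FOXA1 liver mets was the highest list at both, above 97.9% and 97.7% of its loops of like span, and the tumor FOXA1 values stood above 68.1% and 42.5% of theirs. In FOXA1 tumor no start loop of Bcl2 reached 2.

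Inside the Bcl2 gene, chr1:106586199-106589945, 126 kb from the start, was joined in both liver mets lists and in neither tumor list. Its value was 1.87 for FOXA1 and 10.6 for HNF4G, which stood above 99.8% of the HNF4G liver mets loops between 100 and 200 kb. The anchor next to it, chr1:106590550-106593309, was joined in FOXA1 liver mets (0.818), HNF4G liver mets (2.59) and HNF4G tumor (1.38). The anchor on its other side, chr1:106583620-106585182, was joined for FOXA1 in both cell lines (0.974 in liver mets and 1.30 in tumor) and for HNF4G in tumor (1.42). The tumor lists therefore had loops to flanking anchors, and the liver mets restriction concerns the middle anchor alone. The intronic anchors chr1:106628449-106631446 (1.66, 1.91, 1.84 and 0.171) and chr1:106699308-106701705 (0.485, 0.295, 0.133 and 0.378) were joined in all 4 lists.

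A forkhead core of the partner past the 3′ end and one of the middle intronic partner are shown with 60 bases on each side, on the plus strand of GRCm38.p6, because these partners were high in a liver mets list.
Bcl2 partner past the 3′ end, chr1:106525621-106525747: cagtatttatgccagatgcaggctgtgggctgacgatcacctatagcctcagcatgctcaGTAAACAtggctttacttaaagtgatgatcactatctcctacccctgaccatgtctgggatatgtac
Bcl2 intronic partner, chr1:106588072-106588198: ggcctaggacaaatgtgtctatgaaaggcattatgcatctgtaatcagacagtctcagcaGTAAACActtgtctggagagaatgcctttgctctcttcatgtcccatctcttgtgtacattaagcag
The partner past the 3′ end held 1 forkhead core, outside its middle 1000 bases, so it is not in the share given next. The intronic partner held 2 forkhead cores over its whole length, 1 of them in its middle 1000 bases, and no HNF4 element. In the middle 1000 bases, 8 of the 17 Bcl2 partners (47.1%) held a forkhead core, beside 31.7% of the 30542 anchors of the lists, and none held the HNF4 element, beside 1.75%.

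The longest Bcl2 loops were 807 kb in both liver mets lists (1 loop, to chr1:105905150-105909336), 1329 kb in FOXA1 tumor and 321 kb in HNF4G tumor (in Phlpp1, a phosphatase gene that restrains AKT). The FOXA1 lists alone shared loops to Zcchc2 over 722 kb (1.87 in liver mets and 1.91 in tumor) and to chr1:106405727-106410829 over 305 kb (1.67 and 1.80). Within 250 kb of Bcl2, 34 of 45 anchor pairs were loops, and the start anchor, the anchor past the 3′ end and the anchor chr1:106628449-106631446 shared the top with 9 loops each. Neighborhood loops were 21, 18, 20 and 18.

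Bcl2l11 (ENSMUSG00000027381.16, chr2:128126038-128162547, plus strand) encodes BIM, the pro-apoptotic member of the 4. Its 6 distinct starts fell on 1 anchor, chr2:128122993-128128847, which also covers the 3′ end of the neighboring gene Acoxl. Of its 29 partners, 22 lay downstream, and none lay inside the 36.5 kb of the gene. The lists held 4 anchors within 100 kb downstream, all of them joined and all past the gene. No anchor inside the gene was thus there to be joined. Downstream partners were spread over Gm14005 (chr2:128178319-128502765, minus strand), a long noncoding RNA gene also named Morrbid, known in myeloid cells for holding down Bcl2l11. Of the 29 partners 14 overlapped Gm14005, with 11 (liver mets) and 14 (tumor) joined for FOXA1 and 10 (liver mets) and 9 (tumor) for HNF4G.

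The highest FOXA1 values of all 4 genes were in this stretch, 250 to 300 kb downstream of the Bcl2l11 5′ end, while in the HNF4G lists Bcl2 or Bcl2l1 had higher ones. It held 7 partners, of which 6 (liver mets) and 7 (tumor) were joined for FOXA1 and 6 (liver mets) and 4 (tumor) for HNF4G. The partner chr2:128388494-128393689, 265 kb away, had values of 5.01 (liver mets) and 20 (tumor) for FOXA1 and 8.19 (liver mets) and 5.61 (tumor) for HNF4G. It stood above 97.4% to 99.9% of the loops between 200 and 500 kb in every list.

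The anchor before it, chr2:128381756-128386713 at 258 kb, had 20 in FOXA1 liver mets, 7.53 in FOXA1 tumor and 1.87 in HNF4G liver mets, and was not listed in HNF4G tumor. The top FOXA1 contact of Bcl2l11 was therefore at the 258 kb anchor in liver mets and at the 265 kb anchor in tumor, and both lists held both loops. Since 20 is the cap of the value, loops at it are not ordered. The next partner, chr2:128400107-128402862 at 275 kb, had 1.66 (liver mets) and 1.76 (tumor) for FOXA1 and 8.15 (liver mets) and 1.87 (tumor) for HNF4G. HNF4G liver mets was highest there, above 99.7% of its loops of like span, while in the other lists the loop stood above 35.8% to 38.2%. The partners chr2:128376505-128380341 at 252 kb (3.01, 3.16, 5.54 and 3.39) and chr2:128412103-128413840 at 287 kb (1.68, 1.76, 3.49 and 1.86) were also in all 4 lists and also highest in HNF4G liver mets.

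**Figure D5:**
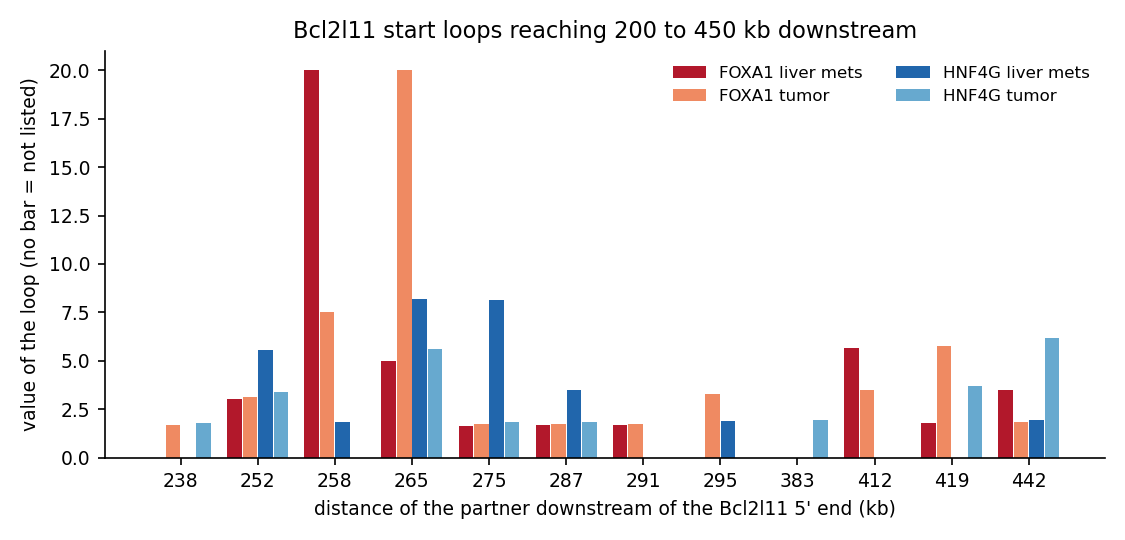
Value (y axis) of the Bcl2l11 start loops whose partner lies 200 to 450 kb downstream of the 5′ end (x axis, not to scale), in each list (colors); no bar means not listed. The FOXA1 lists reach the cap of 20 at the partners 258 kb (liver mets) and 265 kb (tumor) away, and HNF4G liver mets is highest at those 252, 275 and 287 kb away.

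Matches in these partners are shown with 60 bases on each side, on the plus strand of GRCm38.p6, with the HNF4 element (as its reverse complement) or the forkhead core in capitals, because these partners lie in the stretch with the highest FOXA1 values and were in all 4 lists.
Bcl2l11 partner at 252 kb, chr2:128378158-128378284: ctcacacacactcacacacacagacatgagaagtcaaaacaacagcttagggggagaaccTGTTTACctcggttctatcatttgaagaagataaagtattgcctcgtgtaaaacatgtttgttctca
Bcl2l11 partner at 265 kb, chr2:128390543-128390671: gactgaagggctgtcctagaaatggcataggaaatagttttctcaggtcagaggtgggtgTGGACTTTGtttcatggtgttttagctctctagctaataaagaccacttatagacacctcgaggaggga
Bcl2l11 partner at 275 kb, chr2:128401421-128401547: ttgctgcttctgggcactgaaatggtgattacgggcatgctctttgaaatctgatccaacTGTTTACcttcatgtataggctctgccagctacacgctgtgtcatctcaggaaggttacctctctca
The partner at 258 kb held 5 forkhead cores over its 4958 bases, 1 of them in its middle 1000 bases. The partner at 265 kb also held 1 forkhead core, outside its middle, and that at 287 kb held no match. Shares over all anchors were taken for the middle 1000 bases only. In the middle 1000 bases, 12 of the 29 Bcl2l11 partners (41.4%) held a forkhead core and 2 (6.90%) the HNF4 element, beside 31.7% and 1.75% of all anchors. Over the 92 partners of the 4 genes the shares were 38.0% and 4.35%. A match is a run of letters and not a measured binding site.

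Farther out, 3 partners lay 400 to 450 kb downstream, beyond Gm14005 and before Spdye4c. The first, chr2:128536952-128539363, was in both FOXA1 lists alone, at 5.65 in liver mets and 3.48 in tumor. The second, chr2:128543632-128545761, had 1.79 in FOXA1 liver mets, 5.78 in FOXA1 tumor and 3.70 in HNF4G tumor, and was not listed in HNF4G liver mets. The third, chr2:128566125-128570371, was in all 4 lists, with 3.50 and 1.87 for FOXA1 in liver mets and tumor and 1.97 and 6.20 for HNF4G. The factors thus ordered the cell lines in opposite ways at the third, FOXA1 higher in liver mets and HNF4G higher in tumor. That loop was the highest Bcl2l11 start loop of HNF4G tumor and the longest of HNF4G liver mets, 442 kb.

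Upstream of Bcl2l11, 4 of 10 anchors within 500 kb were joined in any list, while downstream 20 of 22 were. The one upstream partner with a value of 2 or more, chr2:127888909-127891571 in an intron of Acoxl, an acyl-CoA oxidase-like gene, lay 236 kb away. It had values of 4.80 in FOXA1 liver mets, 1.70 in FOXA1 tumor and 5.46 in HNF4G liver mets, and was not listed in HNF4G tumor, and the liver mets values stood above 96.9% (FOXA1) and 98.7% (HNF4G) of loops of like span. The longest loops spanned 1205 kb (liver mets) and 1734 kb (tumor) for FOXA1, and 587 kb for HNF4G in tumor, where the partner was the promoter of Prom2, a membrane protrusion gene.

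In the Bcl2l11 neighborhood 40 of 55 anchor pairs (72.7%) were loops, and the start anchor was the joint hub with 10. No anchor of the 250 to 300 kb stretch lay wholly inside the window, so the neighborhood counts of 22, 30, 18 and 15 leave out the loops to it. The ratio was 0.733 for FOXA1 (0.403 to 1.31) and 1.20 for HNF4G (0.571 to 2.56). Over the 4 genes the neighborhood loops numbered 181, 156, 140 and 133, with ratios of 1.16 for FOXA1 (0.931 to 1.45) and 1.05 for HNF4G (0.824 to 1.34), beside 1.21 and 1.02 over whole lists. Of the 274 distinct neighborhood loops, 16.1% were in all 4 lists, beside 5.28% of all loops.

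Loops with a value of 2 or more, above both ties, were counted. Of the 105 start loops, 25 had such a value in some list, with 13 at Bcl2l11, 7 at Bcl2l1, 4 at Bcl2 and 1 at Mcl1, and 3 had it in all 4 lists. These 3 were the Id1 loop of Bcl2l1 and the Bcl2l11 loops to the partners at 252 and 265 kb. The 25 pool all lists, so they match no share of a single list. Per list, the 4 genes had 14 of 71 (liver mets) and 11 of 61 (tumor) for FOXA1. With HNF4G they had 11 of 41 and 10 of 48. All protein-coding genes had 7395 of 78610 and 5510 of 66648 for FOXA1, and 4019 of 51132 and 4286 of 52418 for HNF4G. Among all loops of a list the share was 7.21% to 9.33%. Whether the difference holds at like span was not tested. Start loops of 500 kb or more made up 30 listings over the 4 lists, and 20 of these sat exactly at the higher tied value of their list.

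Among 25 other genes of the BCL2 pathway, 19 had a start loop, with a median of 43.0 loops summed over the lists. In FOXA1, 5 were called higher in liver mets and none lower (12 neither, 8 with too few loops), and in HNF4G none was called higher and 4 lower (12 neither, 9 with too few loops). The FOXA1 calls were 4 BH3-only genes, Bid (20 in liver mets and 11 in tumor), Bbc3, which encodes PUMA (16 and 5), Bik (13 and 6) and Hrk (7 and 2), together with Apaf1 (6 and 2), the caspase platform. The HNF4G calls were the effector Bax (6 in liver mets and 13 in tumor), Bik (3 and 8), Hrk (5 and 10) and Cycs, which encodes cytochrome c (7 and 11). The calls, 5 of 17 and 4 of 16 genes with enough loops, were near the 29.0% and 23.5% of all genes. Of the 3 other BH3-only genes, Bad had 241 loops over the lists, above 99.5% of genes, Bmf had 71 and Pmaip1 had none. The pro-survival Bcl2l10, Bcl2a1a, Bcl2a1b and Bcl2a1d and the caspase inhibitor antagonist Diablo had none either, and Bcl2l2, which encodes BCL-W, had 20. The survivin gene Birc5 had 129.

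Genes with the most similar start loop numbers over the 4 lists were found by Euclidean distance on log2(loops + 1) among 10801 genes. They included Cnpy3 and Cttnbp2nl for Mcl1 (distances 0.193 and 0.201), Cep131, Plscr3 and Fhdc1 for Bcl2l1 (0.0878 to 0.166), Dvl3, Slc7a5 and Tmem129 for Bcl2 (0.163 to 0.171) and Etv4, Best1 and Flt3l for Bcl2l11 (0.138 to 0.188). Cep131, for example, had 26, 19, 11 and 17 loops, beside 27, 20, 11 and 17 for Bcl2l1.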

How the data were processed

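Per the labels, the Hi-ChIP libraries were sequenced and the notes of the submitters name HiC-Pro 3.1.0 and mm10. The study ran HiC-Pro with DpnII fragments and removal of duplicates, followed by hichipper, and the source of the anchors is not given in the sources used here. The authors deposited 1 loop list per group, with 2 anchors and an unnamed score per loop (the value in the text), capped at 20, whose display score was not used. How the replicates were joined is not stated.

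Lists were read with pandas 2.3.3 (Python 3.11.15) and joined to GENCODE M21 on GRCm38, counting from 1. Loops were the same when both anchors were identical. Exact Clopper-Pearson intervals were placed on ratios, conditional on the total of both lists, Wilson intervals on shares and Poisson intervals on counts (scipy 1.17.1). The counting was tested on simulated loops. The 25 pathway genes, the loops named (in all 4 lists, longest per list, in both lists of 1 factor alone) and the alternatives were set by rule. Other loops, the sequence windows and the motifs were chosen after values were seen, and the 4 genes and the lists were chosen with earlier results of these data known. Depth per sample was not analysed here, and 1 gene with start loop numbers similar to those of Mcl1 is not reported here.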

Additional observations from a re-analysis of the deposited data

Results flagged for a closer look

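For 3 counts the FOXA1 and HNF4G ratios of liver mets to tumor lay on opposite sides of 1. Mcl1 start loops had a ratio of 1.86 for FOXA1 (13 and 7) and 0.714 for HNF4G (5 and 7). Bcl2l1 start loops had 1.35 for FOXA1 (27 and 20) and 0.647 for HNF4G (11 and 17). The 4 genes together had 1.16 for FOXA1 (71 and 61) and 0.854 for HNF4G (41 and 48), and the FOXA1 ratio fell to 0.965, also under 1, once divided by the sizes of the lists. With 1 list per group whether the factors differ was not tested, and each interval included 1.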

How the results depend on the processing

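The 17 results (ratios of start and neighborhood loops, the share in all 4 lists and the median spans) were recomputed under 94 alternatives, and 92 stayed within the interval of the value reported. With loops of value 2 or more, the FOXA1 neighborhood ratio of the 4 genes rose from 1.16 to 1.62 (21 and 13 loops). With anchors widened by 5 kb on each side before matching, the share of start loops in all 4 lists rose from 18.1% to 53.3% (56 of 105), because neighboring anchors then count as 1. Several ratios whose interval includes 1 crossed it, such as HNF4G for Mcl1 with anchors up to 5 kb from the start (1.22, from 28 and 23) and FOXA1 for Bcl2l11 at value 2 or more (1.14, from 8 and 7). At that minimum value Mcl1 for HNF4G (0 and 1) and Bcl2 for FOXA1 (2 and 0) gave no ratio. No paired analysis was possible because 1 list per group covers both replicates, and for the same reason no replicate could be left out. Read depth and the unit of the value limit every comparison between lists.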
